A study of Mus musculus with 6 samples.

Results

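The genes described here are 40 members of the NF-κB pathway and its surroundings: NF-κB subunits and inhibitors, target genes, chemokines, cytokines, and receptors and transducers of gp130 signalling. They were chosen by name, with earlier results of these data known. All 40 had at least 1 probe among the 20659 genes that could be named on the array. RNA came from lenses of mice aged 3 months. The knock-in mice carried the W151C change, which replaces tryptophan with cysteine at codon 151 of βB2-crystallin (Crybb2), introduced with CRISPR/Cas9, and were compared with wild type mice of the same age. Each group held 3 single-colour arrays, labelled replicates 1, 2 and 4 for the knock-in and 1, 2 and 3 for the wild type, and the labels give neither the zygosity nor the number of animals behind an array.

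NF-κB is a family of dimeric transcription factors that inhibitor of κB (IκB) proteins hold in the cytoplasm. Receptors for tumour necrosis factor, interleukin 1 and microbial products activate the IκB kinase complex, IκB is degraded, and the freed dimers induce chemokines, cytokines, adhesion molecules and their own inhibitors. Cytokines of the interleukin 6 family signal in parallel through the shared receptor chain gp130 and the transcription factor STAT3. The lens has no blood vessels and holds epithelial and fibre cells, and lens epithelial cells are known to secrete cytokines and chemokines after injury or surgery.

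The 75th percentile of the spot signal lay between 120 and 201 on 5 arrays and at 698 on wild type array 3, and 45.5% to 58.4% of spots were well above background. A slide here is a group of arrays that share a scan identifier in the headers, and slide barcodes were not read. Slide 1 so defined carried the knock-in arrays, slide 2 the first pair of wild type arrays, and slide 3 wild type array 3. Wild type array 3 was scanned on a different day. Slide and genotype cannot be told apart, since each slide carried a single genotype. A value below is a log2 signal after subtraction of the array's own 75th percentile. All 10 lens fibre markers and 9 of 10 lens epithelial markers were well above background on all 6 arrays. Of 12785 genes tested with limma, 25.9% passed an adjusted p of 0.05: 13.3% were higher and 12.6% lower in knock-in lenses. That is 51.2% of the calls higher, against 40.9% when arrays were centred on their median. The labels call the arrays biological replicates, and p-values measure the spread between these arrays, which may be technical.

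Of the 8 chemokines 3 rose, of the 8 cytokines 2 rose and 2 fell, and none of the 4 NF-κB subunits tested was called. The chemokine Ccl2 was 9.21-fold higher, its relative Ccl7 was 10.4-fold higher against a wild type level in which 1 of 3 arrays was not well above background, Osmr was 4.13-fold and Stat3 2.48-fold higher, and the atypical IκB protein Bcl3, the adhesion molecule Vcam1 and the cytokine Il6 went from below background in the wild type to a measured signal. Il1b, Traf1 and Il18 were lower. In bulk lens RNA, fewer cells of a type and less RNA per cell cannot be told apart. Of the 40 members, 30 passed the filter on dim probes and were tested. Of these, 12 rose, 3 fell and 15 did not pass, which is 50% of the tested members beside 25.9% of all genes tested. A member that passes the filter only through the group in which it is bright is likely to differ, so the 50% is not support on its own. Among the 22 members well above background on all 6 arrays 9 were called, where 26.3% of all such genes were called. The median difference was 0.98 over the tested members and 0.94 over all 40, against -0.04 over all genes tested and 0.21 over all genes named on the array. In 18 of the 30, all arrays of one genotype lay above all arrays of the other, which also held for 45.9% of all genes tested. Because the members were chosen with earlier results of these data known, none of these contrasts with all genes is an independent result.

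**Figure D1:**
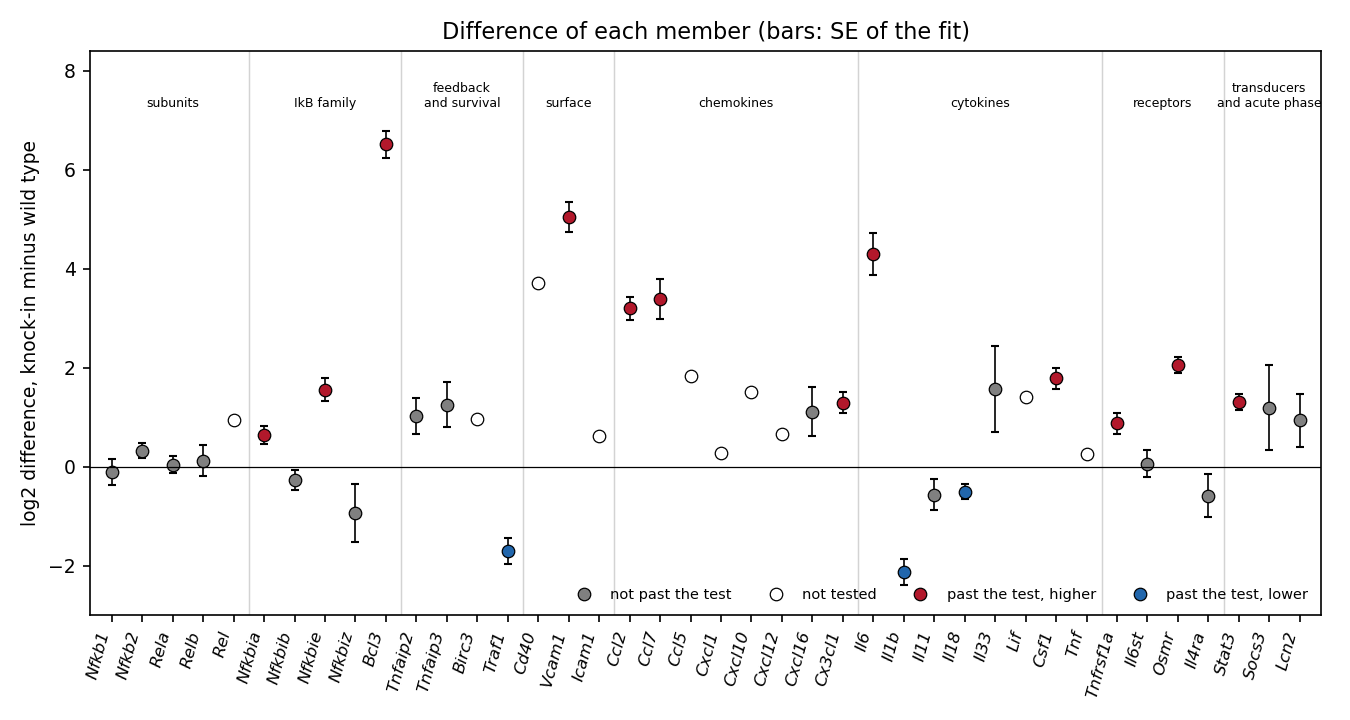
Difference in log2 signal (vertical axis, knock-in minus wild type) of each of the 40 members, in order of role, with the SE of the limma fit as bars (n = 3 arrays per group); open circles are the 10 members that were not tested. The 4 tested subunits lie between -0.11 and 0.32, while Bcl3, Vcam1, Il6, Ccl2 and Ccl7 lie between 3.20 and 6.51, the first 3 of them measured against a wild type signal not well above background.

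No subunit of NF-κB passed the test. Rela, the main transactivating subunit, had signals of 2.48, 2.72 and 2.92 on knock-in arrays 1, 2 and 4 and of 2.55, 2.63 and 2.82 on wild type arrays 1, 2 and 3. The groups overlapped fully, and the difference of 0.04 had a 95% interval from -0.38 to 0.46 (limma, adjusted p = 0.898). Nfkb1, the precursor of the DNA-binding partner of Rela, read -1.82, -0.98 and -0.92 in knock-in and -1.22, -1.25 and -0.91 in wild type lenses. Its difference was -0.11 (95% interval -0.75 to 0.53, adjusted p = 0.793), with knock-in array 1 lower than every other array. Nfkb2, the precursor subunit of the non-canonical pathway, was slightly higher on all knock-in arrays (-2.53, -2.39 and -2.27) than on all wild type arrays (-2.62, -2.77 and -2.76), and the difference of 0.32 did not pass (SE 0.15, adjusted p = 0.169). Rel, the subunit of lymphoid cells, was not well above background on any array.

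Relb, the transactivating partner of Nfkb2 in the non-canonical pathway, gave a different answer on each of its 2 probes, both well above background on all arrays. The brighter probe, which represented the gene, read -1.72, -1.78 and -1.46 in knock-in and -1.43, -1.42 and -2.48 in wild type lenses, a difference of 0.12 (SE 0.31, adjusted p = 0.80). The second probe read -1.48, -1.59 and -1.17 in knock-in and -3.18, -2.93 and -2.93 in wild type lenses. There the groups did not overlap. When every one of the 21076 kept probes was tested on its own, the second probe differed by 1.60 (SE 0.19, adjusted p = 0.00192) and the first by 0.12 (adjusted p = 0.802), and the mean of both gave 0.86 (adjusted p = 0.0207). Whether Relb RNA differed therefore depended on the probe. Both probes are assigned to the same RefSeq transcript, and their positions in it were not analysed here.

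Of the 5 IκB family genes, Nfkbia, Nfkbie and Bcl3 rose and 2 did not pass. Nfkbia, the prototype IκB and a rapid feedback inhibitor, read 2.17, 1.86 and 2.13 in knock-in and 1.36, 1.24 and 1.65 in wild type lenses. The knock-in arrays were all above the wild type arrays, by 0.63 on the log2 scale (SE 0.18, 1.55-fold, adjusted p = 0.0403). This call was narrow: it was lost on leaving out any array but wild type 3 (adjusted p from 0.0831 to 0.149 over those 5 arrays) and when slide was a random block, a fit in which arrays of a slide share a deviation (adjusted p = 0.311). Nfkbie, which encodes IκBε, read -0.13, 0.31 and 0.69 in knock-in and -1.20, -1.39 and -1.17 in wild type lenses. It was 2.92-fold higher (log2 difference 1.55, SE 0.23, adjusted p = 0.0043; adjusted p = 0.0943 when slide was a random block).

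Bcl3, an atypical IκB protein that works in the nucleus with homodimers of NF-κB subunits as a coactivator, read 0.34, 0.59 and 0.58 in knock-in lenses and -5.82, -5.62 and -6.58 in wild type lenses, where no array had it well above background. Against the lowest signal that counted as well above background, the knock-in level was at least 23.5-fold higher (adjusted p of the fit = 3.79e-05). Such a bound sets the mean of the bright group against, on each array of the dim group, the lowest signal well above background or, where higher, the probe's own. Bounds were not tested, and the adjusted p beside one is that of the limma difference between measured values, here 6.51. The other inhibitors were not called. Nfkbib, which encodes IκBβ, differed by -0.27 (SE 0.20, adjusted p = 0.344), with all 3 of its probes in the same direction. Nfkbiz, an inducible nuclear IκB, read -3.01, -3.44 and -2.89 in knock-in and -1.27, -1.64 and -3.60 in wild type lenses. Wild type array 3 lay below all knock-in arrays, and the difference of -0.94 did not pass (adjusted p = 0.267), and within the shared scan day, which leaves wild type array 3 out of the comparison, it was -1.66 (SE 0.22, adjusted p = 0.00244).

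Promoter sequences were available in RefSeq tables (GRCm38.p6) for 31 of the 40 members, with 36 annotated starts. Ccl2, Ccl5, Ccl7, Cxcl16, Cd40, Vcam1, Nfkb1, Nfkbiz and Relb had no entry. The 250 bases before each start were searched on both strands for the NF-κB consensus motif and for TTCNNNGAA, the core of a STAT site. The NF-κB motif was found in 11 of the 36 member promoters (30.6%, in 9 genes) and in 3.9% of all 32851 promoters, and the STAT motif in 4 of 36 (11.1%) and in 7.02% of all. The members were chosen as genes of this pathway, so the share describes the list and is no independent result. No match of one motif overlapped a match of the other, and a match is a stretch of letters and not a measured binding site. Among the 9 members that rose and had a promoter, 4 held the NF-κB motif, and their upstream stretches are shown because these are the called genes with a match: 250 bases 5′ to 3′, ending at the base before the start, with the motif in capitals.
Nfkbia (chr12:55492648-55492897, strand -): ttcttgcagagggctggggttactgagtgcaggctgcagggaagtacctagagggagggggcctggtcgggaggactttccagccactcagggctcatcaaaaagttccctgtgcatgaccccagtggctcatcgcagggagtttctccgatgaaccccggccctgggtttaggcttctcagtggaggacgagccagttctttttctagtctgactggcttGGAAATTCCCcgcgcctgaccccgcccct
Nfkbie (chr17:45555450-45555699, strand +): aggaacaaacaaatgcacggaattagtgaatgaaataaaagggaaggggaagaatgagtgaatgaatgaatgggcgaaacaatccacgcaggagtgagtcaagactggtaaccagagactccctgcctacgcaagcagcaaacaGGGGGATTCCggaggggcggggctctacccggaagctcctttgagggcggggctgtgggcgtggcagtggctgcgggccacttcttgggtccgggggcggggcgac
Il6 (chr5:30012864-30013113, strand +): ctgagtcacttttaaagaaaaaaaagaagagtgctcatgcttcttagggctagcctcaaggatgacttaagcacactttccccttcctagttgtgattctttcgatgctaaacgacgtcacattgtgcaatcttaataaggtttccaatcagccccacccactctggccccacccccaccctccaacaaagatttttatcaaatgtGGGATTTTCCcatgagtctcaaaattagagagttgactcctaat
Csf1 (chr3:107760470-107760719, strand -): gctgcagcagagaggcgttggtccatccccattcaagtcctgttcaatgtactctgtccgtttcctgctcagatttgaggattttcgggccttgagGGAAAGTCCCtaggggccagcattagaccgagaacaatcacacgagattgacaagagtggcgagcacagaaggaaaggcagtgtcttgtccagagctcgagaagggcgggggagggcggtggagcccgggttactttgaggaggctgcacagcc
The matches began 29 bases before the start in Nfkbia, 106 in Nfkbie, 44 in Il6 and 154 in Csf1, and those of Nfkbia and Csf1 read on the strand opposite to the gene.

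The motif was also found in members that did not rise. Tnfaip3 and Nfkb2, tested and not called, held 2 and 5 matches, with 2 of the 5 in Nfkb2 overlapping as the same site read on both strands, 1 base apart. Cxcl10, Cxcl1 and Rel, too dim to be tested, held 2 each, and in Cxcl1 and Rel the 2 matches were again 1 base apart on opposite strands. None of the 3 members that fell held it. The matches nearest to the start of Cxcl10 and farther from the start of Tnfaip3 are shown with up to 20 bases on each side, for comparison with the called genes.
Cxcl10 (chr5:92348963-92349012, strand -): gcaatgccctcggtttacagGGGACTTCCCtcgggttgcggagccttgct
Tnfaip3 (chr10:19015506-19015555, strand -): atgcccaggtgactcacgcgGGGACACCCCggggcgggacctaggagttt

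**Figure D2:**
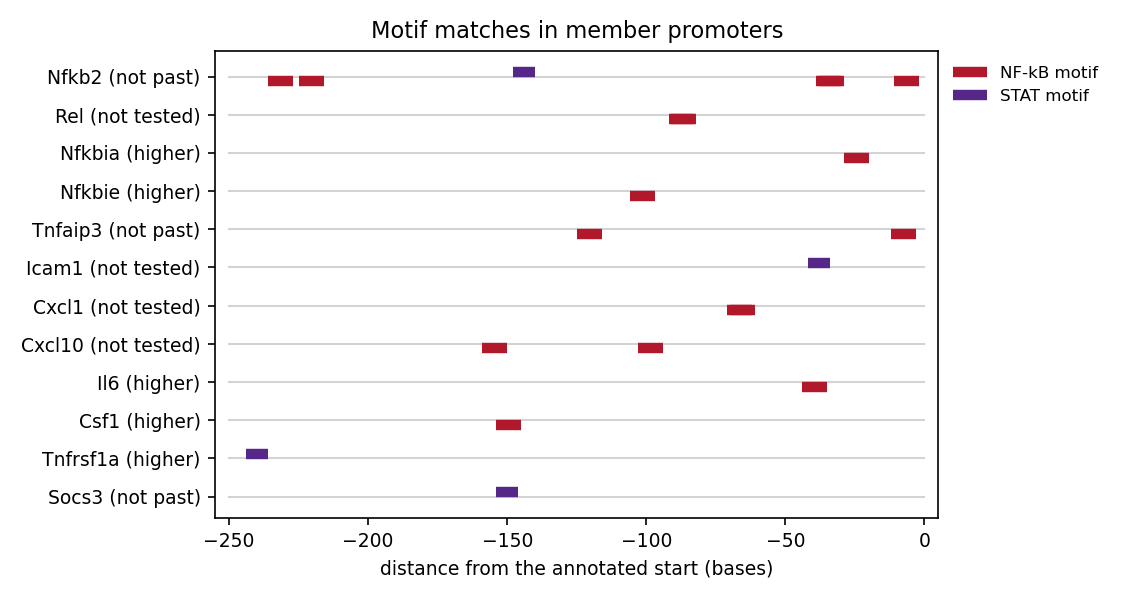
Position of NF-κB (red) and STAT (purple) motif matches in the 250 bases before the annotated start of the 12 members with a match; the horizontal axis is the distance from the start in bases, all starts of a gene share a line, and the call in the expression test is in brackets. Matches occur in members that rose, such as Il6 at 44 bases, and in members that were not called, such as Tnfaip3.

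Feedback and survival genes were mixed. Tnfaip3, which encodes the ubiquitin-editing inhibitor A20, was higher on all knock-in arrays, at -0.99, -0.81 and 0.79, than on the wild type arrays, at -1.61, -1.66 and -1.48. Knock-in array 4 stood apart from the other 2, and the difference of 1.25 did not pass (SE 0.45, adjusted p = 0.083), whereas without that array it was 0.68 (adjusted p = 0.0464). On the same array the summed signal of 6 retina markers reached 17.2 times the 75th percentile, against 0.888 at the lowest on the knock-in arrays and 0.244 to 0.313 in the wild type. The sum was thus higher on every knock-in array than on every wild type array. All 6 markers had a probe, and none was well above background on all 6 arrays. Of 2 erythrocyte markers tested Hbb-bt rose, and of 5 iris and ciliary pigment markers tested Oca2 fell. The part of such tissues in the Tnfaip3 value or in the other differences was not tested. Tnfaip2, a TNF-induced protein, was also higher on every knock-in array (-1.60, -1.97 and -1.88 against -2.54, -2.26 and -3.73), and its difference of 1.02 did not pass (SE 0.37, adjusted p = 0.0867). Without wild type array 3 it was 0.58 (adjusted p = 0.0377). Traf1, an adaptor of TNF receptors that NF-κB usually induces, went the other way, with -2.90, -3.53 and -3.19 in knock-in and -1.56, -1.06 and -1.89 in wild type lenses. It was 3.26-fold lower (log2 difference -1.70, SE 0.26, adjusted p = 0.00506; adjusted p = 0.0885 when slide was a random block) and was well above background on 1 knock-in array only, so the size of the fall is set partly against background. With normexp, a model of background that damps dim signals, the difference was -0.48 (adjusted p = 0.318). Birc3, an inhibitor of apoptosis protein, was not well above background on any array.

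Of the surface molecules, Vcam1, which binds integrins of leukocytes, read -0.69, -0.77 and -1.49 in knock-in lenses and -5.91, -5.66 and -6.52 in wild type lenses. No wild type array had it well above background, and it was at least 8.36-fold higher in the knock-in (adjusted p of the fit = 0.000171). Its second probe was also well above background on all knock-in arrays and on no wild type array (adjusted p = 0.000357 among all kept probes). Cd40, a TNF receptor family member of antigen-presenting cells, read -2.47, -2.18 and -2.79 in knock-in and -5.97, -5.84 and -6.72 in wild type lenses. Only 2 knock-in arrays and no wild type array had it well above background, so it fell outside the filter and was not tested in the main comparison. Its level was at least 2.97-fold higher, and without the filter it passed among all 20659 genes (log2 difference 3.70, SE 0.31, adjusted p = 0.00192). Icam1, the other adhesion molecule, was not well above background on any array.

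The chemokines Ccl2, Ccl7 and Cx3cl1, all attractants of monocytes, rose. Ccl2, the main monocyte attractant, read 3.16, 2.93 and 3.09 in knock-in and 0.24, -0.07 and -0.60 in wild type lenses. The groups lay far apart and the knock-in arrays agreed closely, with a mean of 3.06 ± 0.12 (SD, n = 3) against -0.14 ± 0.42 (SD, n = 3). The log2 difference was 3.20 (SE 0.23, adjusted p = 0.000297), and it passed in all 18 alternative settings, some of which repeat nearly the same comparison. Ccl7, its neighbour in function and in the same chemokine cluster, read 0.05, -0.59 and -0.04 against -3.09, -3.16 and -4.48, with wild type array 3 not well above background. It differed by 3.38 (SE 0.40, adjusted p = 0.00165), and the call was lost with normexp background correction (1.82, adjusted p = 0.054). Cx3cl1, the membrane-bound chemokine fractalkine, read 1.70, 1.79 and 1.74 against 0.32, 0.19 and 0.86. It was 2.44-fold higher (log2 difference 1.29, SE 0.21, adjusted p = 0.00574; adjusted p = 0.0681 when slide was a random block).

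Cxcl16, a scavenger receptor and chemokine, differed by 1.11 (SE 0.50, adjusted p = 0.147) and did not pass, with values of -1.16, -2.02 and -1.65 against -1.97, -2.31 and -3.88. One knock-in array lay below the highest wild type array. Ccl5 and Cxcl10, attractants of T cells that interferons also induce, and Cxcl12 were not well above background on any array, and Cxcl1, a neutrophil attractant, was so on wild type array 1 alone. Without the filter Ccl5 differed by 1.83 (SE 0.44, adjusted p = 0.0498), a value below background in both genotypes.

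**Figure D3:**
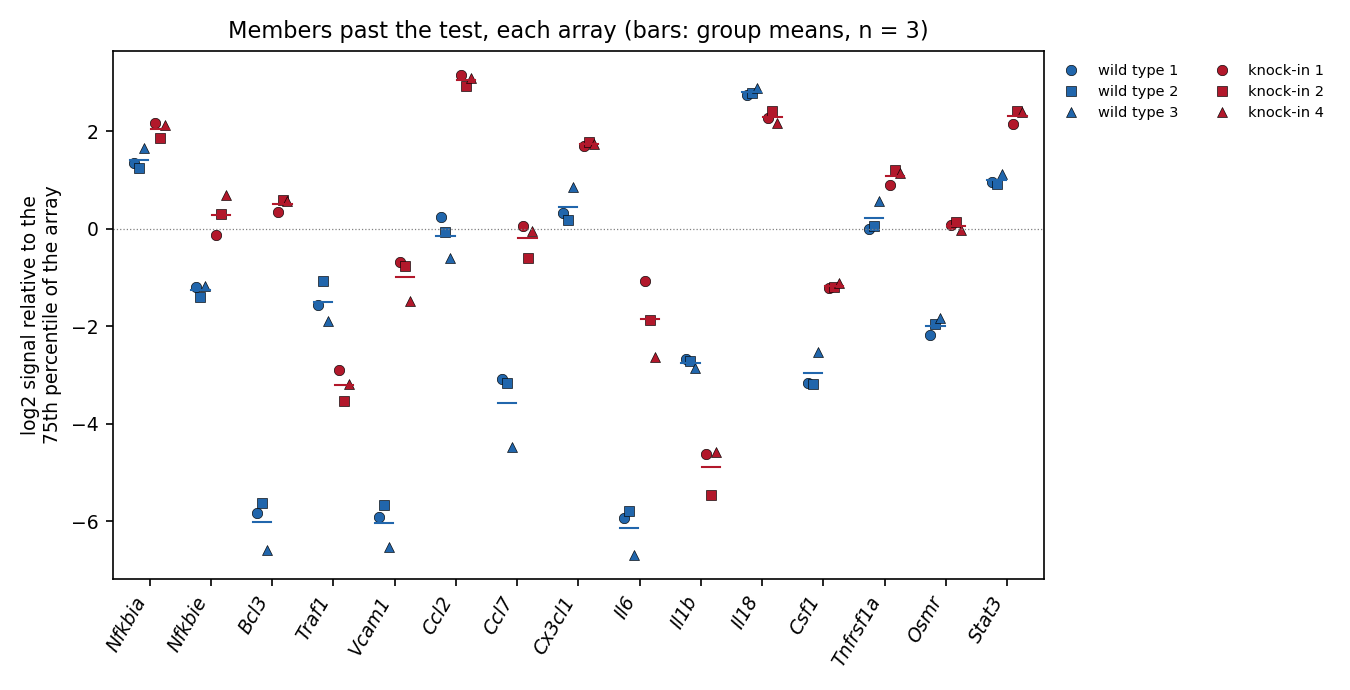
Log2 signal after subtraction of the array's 75th percentile (vertical axis) of the 15 members past the test on the 3 knock-in (red) and 3 wild type (blue) arrays, with group means as bars. The groups do not overlap for any of the 15; the wild type values of Bcl3, Vcam1 and Il6 and the knock-in values of Il1b were not well above background.

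Cytokines moved in both directions. Il6, the acute inflammatory cytokine that signals through gp130, read -1.06, -1.86 and -2.63 in knock-in lenses and -5.94, -5.79 and -6.68 in wild type lenses, where it was not well above background on any array. It was at least 4.58-fold higher (adjusted p of the fit = 0.000849). Knock-in array 1 had the highest and array 4 the lowest of the knock-in values. Csf1, the growth factor of macrophages, read -1.22, -1.19 and -1.11 against -3.16, -3.18 and -2.52. It was 3.44-fold higher (log2 difference 1.78, SE 0.21, adjusted p = 0.00182), and its other 2 probes were also higher. One differed by 1.27 (SE 0.30, adjusted p = 0.024 among all kept probes), and the other was well above background on all knock-in arrays and on no wild type array (adjusted p = 0.00012 among all kept probes). With normexp background correction the calls of Il6 (1.18, adjusted p = 0.113), Vcam1 (1.87, adjusted p = 0.0672) and Csf1 (0.81, adjusted p = 0.0506) were lost.

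Il1b and Il18, whose proteins the inflammasome activates, fell. Il1b, the precursor of interleukin 1β, read -4.61, -5.45 and -4.57 in knock-in and -2.66, -2.71 and -2.86 in wild type lenses. It was well above background on all wild type arrays and on no knock-in array, and was at least 1.52-fold lower in the knock-in. The adjusted p of the fit was 0.00189, and 0.0531 when slide was a random block. The lowest signal well above background was -2.68 on knock-in array 1, within the range of the wild type values. It was -3.67 and -3.70 on knock-in arrays 2 and 4. With normexp background correction the difference was -0.34 (adjusted p = 0.493). Il18, the related cytokine of epithelia, read 2.27, 2.42 and 2.18 against 2.74, 2.79 and 2.88. The difference was -0.51 (SE 0.15, 1.43-fold lower, adjusted p = 0.0451), and the call was lost on leaving out any array but wild type 3 (adjusted p from 0.0802 to 0.142 over those 5 arrays), with the replicate number as a block (adjusted p = 0.0995) and when slide was a random block (adjusted p = 0.311).

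Il33, an alarmin of epithelial nuclei, was not called: it read 0.81, -0.68 and -1.31 in knock-in and -1.43, -0.62 and -3.80 in wild type lenses, a difference of 1.56 with a wide error (SE 0.87, adjusted p = 0.229). Il11, a cytokine of the gp130 family, read -1.39, -1.19 and -1.06 against -0.37, -0.20 and -1.36. Wild type array 3 again lay with the knock-in arrays, and the difference of -0.57 did not pass (adjusted p = 0.22), whereas within the shared scan day it was -0.93 (SE 0.15, adjusted p = 0.00516). Lif, a further gp130 cytokine, was well above background on 2 arrays of each genotype and was not tested, with -2.49, -2.88 and -2.42 against -3.39, -3.07 and -5.52. Tnf, the founding NF-κB activator, was not well above background on any array.

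Among receptors, Osmr, the oncostatin M receptor chain that pairs with gp130, showed one of the most stable differences. It read 0.08, 0.14 and -0.03 in knock-in and -2.17, -1.96 and -1.82 in wild type lenses. The log2 difference was 2.05 (SE 0.16, adjusted p = 0.000382), and it passed in all 18 alternatives. Its partner Il6st, which is gp130 itself, read 1.04, 0.91 and 1.05 against 0.72, 0.57 and 1.53. The groups overlapped, and the difference was 0.06 (95% interval -0.57 to 0.69, adjusted p = 0.89). Tnfrsf1a, the widely expressed TNF receptor, read 0.90, 1.20 and 1.14 against 0.00, 0.06 and 0.58 and was 1.83-fold higher (log2 difference 0.87, SE 0.21, adjusted p = 0.0231). That call was lost on leaving out any array but knock-in 1 and wild type 3 (adjusted p from 0.0684 to 0.0993) and when slide was a random block (adjusted p = 0.204), and its dimmer probe differed by 0.55 (SE 0.27, adjusted p = 0.18 among all kept probes). Il4ra, the receptor chain for interleukins 4 and 13, differed by -0.59 (SE 0.44, adjusted p = 0.36), its 2 probes had opposite signs, and within the shared scan day the difference was -1.14 (adjusted p = 0.0024).

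Stat3, the transcription factor downstream of gp130, was higher on every knock-in array (2.14, 2.41 and 2.39) than on every wild type array (0.96, 0.92 and 1.13). The difference was 1.31 (SE 0.16, adjusted p = 0.00191), a dim second probe, well above background on 2 knock-in arrays and 1 wild type array, differed by 1.21, and the call held in all 18 alternatives, with an adjusted p of 0.0416 at the highest. Socs3, the feedback inhibitor that STAT3 induces, read 4.84, 4.79 and 4.24 in knock-in and 4.91, 4.13 and 1.26 in wild type lenses. The difference of 1.19 did not pass (SE 0.86, adjusted p = 0.345). Wild type array 3 was far below the rest, and within the shared scan day it was 0.10 (SE 0.29, adjusted p = 0.798). Lcn2, an acute phase protein that binds siderophores, read 0.22, -1.02 and -1.20 against -1.29, -0.90 and -2.60 and differed by 0.93 (SE 0.53, adjusted p = 0.237).

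**Figure D4:**
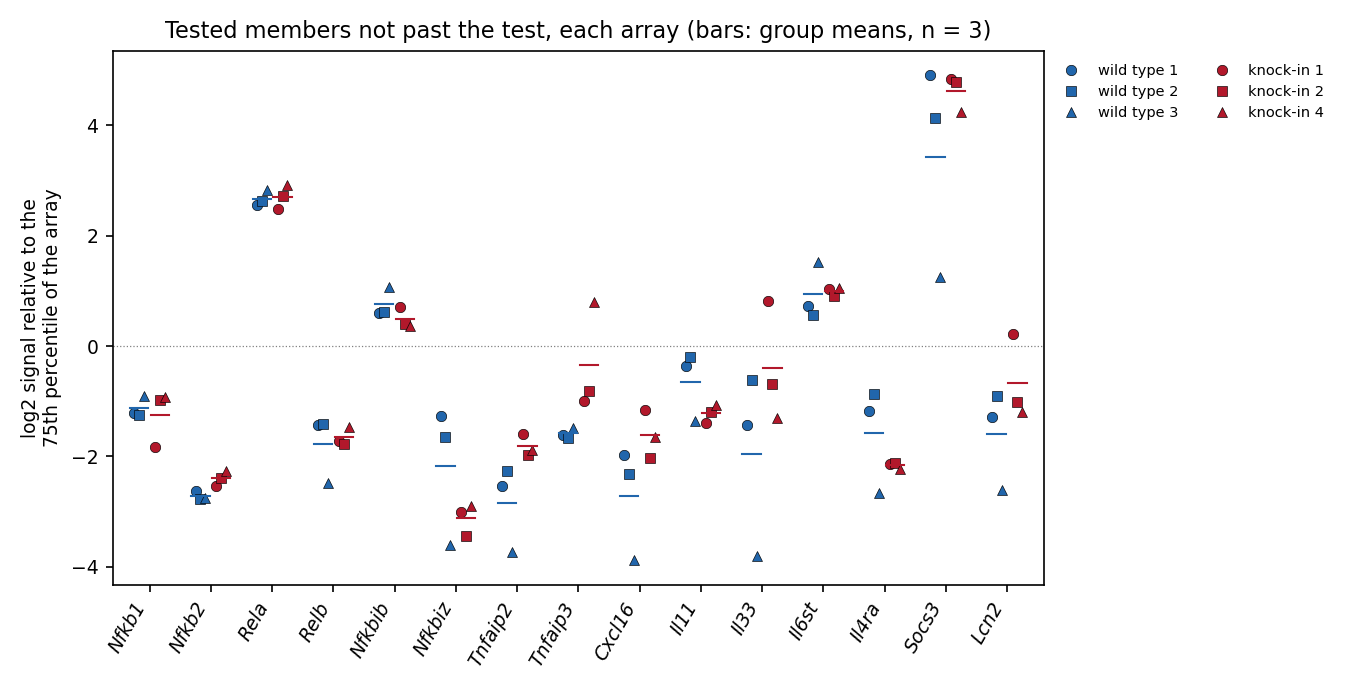
Log2 signal after subtraction of the array's 75th percentile (vertical axis) of the 15 tested members that did not pass, on the 3 knock-in (red) and 3 wild type (blue) arrays, with group means as bars. Wild type array 3 (blue triangles) lies far below the other wild type arrays for Nfkbiz, Il33, Socs3, Cxcl16 and Lcn2, and knock-in array 4 (red triangles) stands above the others for Tnfaip3.

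Single arrays set much of the spread. Wild type array 3 was the lowest wild type array for 16 of the 30 tested members (53.3%), which also held for 41.7% of all genes tested. Without it 20 of 31 tested members were called, 14 higher and 6 lower, against 15 of 30 with it. The count over all genes rose as well, to 5661 of 13064 tested without it from 3312 of 12785 with it. Knock-in array 1 was the highest knock-in array for 12 of the 30, beside 38.4% of all genes tested, and it carried the highest Il6, Il33 and Lcn2. Of 16 markers of macrophages and other myeloid cells, 15 were on the array and 6 were well above background on all arrays. Of the 9 tested, Tyrobp, a signalling adaptor, and C1qc, a complement chain, rose and Itgam, an integrin, fell. Tyrobp was well above background on no wild type array and C1qc on 1. Of the 3 Itgam probes 2 were lower and 1 was higher in the knock-in. Both markers that rose were highest on knock-in array 1, at -0.25 and 1.52, against -2.46 and -0.39 on array 2. The summed signal of the 15 ranged from 10.2 to 19.7 in knock-in and from 13.4 to 42.2 in wild type lenses, in multiples of the 75th percentile. Itgam made up most of this sum, at 3.33, 2.60 and 2.97 in knock-in and 5.12, 5.21 and 3.51 in wild type lenses, so the sum runs against Tyrobp and C1qc and is no measure of myeloid cells. Lyz2, Fcgr1 and Mrc1 were not well above background on any array, and neither were Cd3d of T cells nor the neutrophil markers S100a8, S100a9, Mpo and Cxcr2. The summed signal of 8 lymphocyte markers ranged from 7.16 to 9.48 in knock-in and from 6.78 to 19.1 in wild type lenses. Cd4 made up most of it, at 2.59, 2.26 and 2.15 against 3.76, 3.42 and 2.02, so this sum is no measure of lymphocytes. Of the 5 tested, Cd8a alone was called, as lower (limma, adjusted p = 0.0477). No knock-in array had it well above background, and its 2 probes had opposite signs. Of the 5 neutrophil markers on the array only Elane was well above background, at 3.24, 3.10 and 2.78 in knock-in and 3.58, 3.70 and 2.14 in wild type lenses. Their summed signal, from 6.95 to 9.62 and from 4.47 to 13.1, is nearly all Elane and is no measure of neutrophils. The part of such cells in the chemokine and cytokine values was not tested.

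Of the 15 called members, 4 passed in every alternative run on them: Bcl3, Ccl2, Osmr and Stat3. The alternatives are not separate checks. The scan day as a block and leaving out wild type 3 gave nearly the same fit, as for Ccl2 at 2.98 in both. All 15 passed within the shared scan day, where 43.5% of all genes tested passed. So did 3262 of the 3312 genes called in the main fit, which makes this outcome nearly fixed in advance. When slide was a random block 8 passed: Bcl3, Vcam1, Ccl2, Ccl7, Il6, Csf1, Osmr and Stat3. In that fit 620 of the 3312 genes passed, and 4.85% of all genes tested. All 8 were higher in the knock-in, and Bcl3, Vcam1, Ccl7 and Il6 had passed the filter on dim probes only through the knock-in group. Centring on the median and testing without the filter each ended the calls of Nfkbia (adjusted p = 0.171 and 0.114), Il18 (0.199 and 0.136) and Tnfrsf1a (0.0663 and 0.0705). With normexp background correction 6 passed: Bcl3, Nfkbie, Ccl2, Cx3cl1, Osmr and Stat3. None of the 15 changed sign in any of the alternatives.

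**Figure D5:**
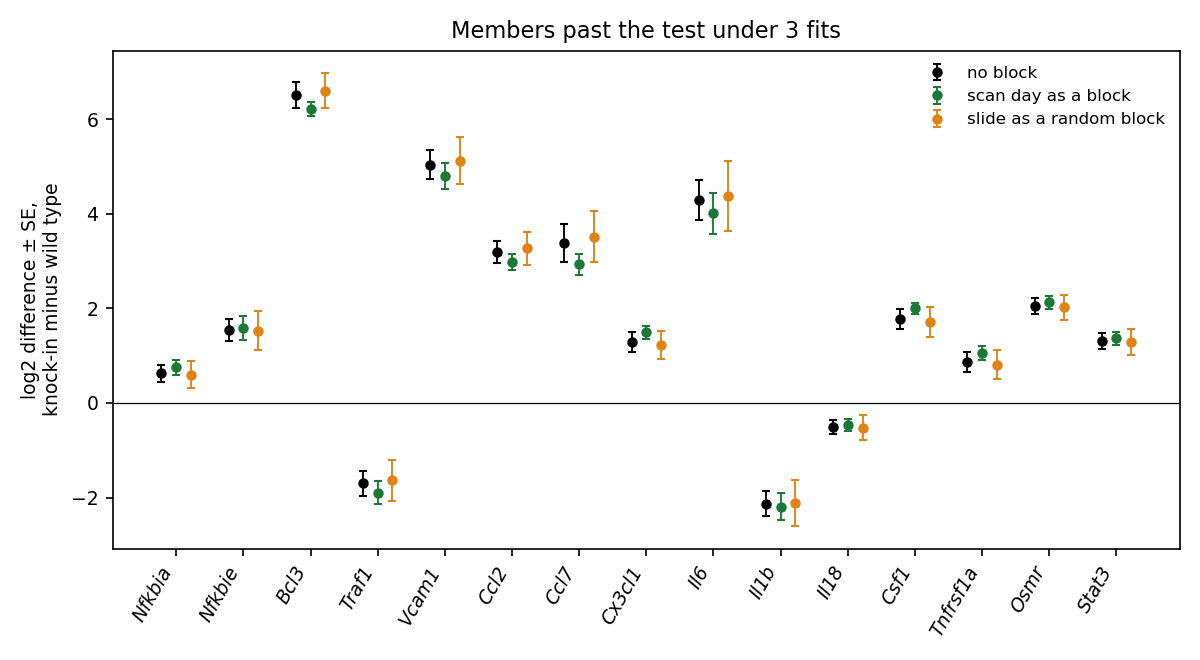
Log2 difference with its SE (vertical axis, knock-in minus wild type) of the 15 called members in 3 limma fits: without a block (black), with scan day as a block (green) and with a random slide block (orange). The differences stay close across fits, as for Bcl3 at 6.51, 6.22 and 6.60, while the SE grows with the random slide block.

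The 10 members that were not tested all had higher means in the knock-in lenses. Of these, 7 were not well above background on any array: Rel, Birc3, Icam1, Ccl5, Cxcl10, Cxcl12 and Tnf. Their median difference was 0.93, but the 5966 named genes below background on every array had a median difference of 0.74. Positive differences were therefore common among probes this dim, whichever gene they belonged to.

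Genes upstream of NF-κB were called near the rate of all genes. Of 41 kinases, adaptors, receptors and regulators that lead to NF-κB, 30 were tested, 4 rose and 2 fell (20%, beside 25.9% of all genes tested), with a median difference of 0.10. Tnip2, a binding partner of A20 that inhibits NF-κB, rose by 1.63 (SE 0.14, adjusted p = 0.000533), Ripk1, the kinase of the TNF receptor complex, by 1.03 (SE 0.21, adjusted p = 0.0132), Irak1, a kinase of interleukin 1 and Toll-like receptors, by 0.73 (SE 0.15, adjusted p = 0.0146) and Ikbkb, the catalytic IκB kinase, by 0.71 (SE 0.21, adjusted p = 0.0424). Otulin, which removes linear ubiquitin chains, fell by 0.82 (SE 0.16, adjusted p = 0.0115). Ikbkg, the regulatory subunit NEMO, was at least 1.11-fold lower (adjusted p of the fit = 0.0165), and all knock-in arrays failed the background criterion. Of these 6 calls, 1 remained when slide was a random block. Leaving out knock-in array 2 took the count of called genes from 6 to 1, wild type 1 to 3 and wild type 2 to 2, and leaving out wild type 3 took it to 10.

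Of 31 further genes of gp130 and JAK-STAT signalling, 22 were tested, 2 rose and 1 fell (13.6%), with a median difference of 0.15. Il6ra, the interleukin 6 receptor chain that pairs with gp130, read -0.75, -1.22 and -1.25 in knock-in and -5.71, -5.60 and -6.48 in wild type lenses. No wild type array had it well above background, and it was at least 7.87-fold higher in the knock-in (adjusted p of the fit = 0.000146). Il6, Il6ra, Osmr and Stat3 were thus higher while gp130 itself was not called. Stat6, the transcription factor of interleukin 4 signalling, rose by 1.55 (SE 0.14, adjusted p = 0.000668), with 1 of its 3 probes in the opposite direction. With normexp background correction none of the 3 called genes passed. The count went from 3 to 5 without knock-in 1 and to 9 without wild type 3.

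Of 27 receptors for chemokines and other cytokines, 10 were tested, 1 rose and 1 fell (20%), and 13 were not well above background on any array. Ifnar2, a chain of the type I interferon receptor, rose by 0.75 (SE 0.22, adjusted p = 0.0477), and Csf2rb, the shared chain of the receptors for interleukins 3 and 5 and for GM-CSF, fell by 3.05 (SE 0.41, adjusted p = 0.00296) while its 2 probes had opposite signs. Only 1 gene stayed called on leaving out array 1 or 2 of either genotype or when slide was a random block, and 4 were called on leaving out wild type 3. Ccr2, the receptor for Ccl2 and Ccl7, was not well above background on any array.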

How the data were processed

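RNA of 6 lens samples was labelled with Cy3, 1 colour per Agilent array. The deposited values are spot intensities: the processed signal, which per the file headers Feature Extraction 11.0.1.1 had background-subtracted (the submitters' processing notes name version 9.1), and the median spot and background intensity. No source used here gives a scaling between arrays. The log2 processed signal was set against the 75th percentile of each array over 43020 non-control spots, without outlier spots, and averaged by probe. Probes well above background (50% of spots) on all arrays of at least 1 group were kept, 21076 of 39429. Probes were named through RefSeq accessions (27234 matched, table of GRCm38.p6), the brightest probe represented each of 12785 genes, and limma 3.58.1 in R 4.3.3 tested knock-in minus wild type with Benjamini-Hochberg adjustment at 0.05. With 3 arrays a group an exact permutation test reaches p = 0.1 at the lowest. Normexp was planned on the spot signal and used the median intensities. Arrays of a group correlated between 0.9532 and 0.9956. In simulated data for 12782 genes the fit recovered 45% of 2-fold changes (log2 of 1) and 96% of those with a log2 change of 2, with 4 false calls among 145. Only 200 of these genes were made to differ, whereas 25.9% of the genes tested on the real arrays were called. Since slide and genotype cannot be told apart on those arrays, the false calls give no error rate for them. Alternatives covered scaling, background, filters, flags, probe choice, blocks, array weights, variance trend and leaving out each array. All 40 members are described by role, and from each pathway list the genes past the test, up to 6, except where not reported here. Il6st, Cd40 and other members that were not called are given by array after their values were seen, and Ccr2 and single cell markers are named outside the rule. The members and lists were chosen with earlier results of these data known.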

Additional observations from a re-analysis of the deposited data

How the results depend on the processing

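Of the 15 member calls, the number was between 12 and 20 on leaving out single arrays, 6 with normexp, 9 with probes above background on all arrays, 8 when slide was a random block, and 28 with array weights, a setting whose weights did not converge and that called 11871 of all genes. All genes past the test numbered 3312, and 1433 with normexp, 2002 without the filter on dim probes, 620 when slide was a random block, 5566 with the scan day as a block, 5446 with the replicate block and between 1538 and 5661 without single arrays (1538 without knock-in 2, 1699 without wild type 1, 1862 without wild type 2, 5661 without wild type 3). Upstream genes (6) numbered 1 when slide was a random block, 10 with the scan day as a block, 28 with array weights and between 1 and 10 without single arrays. The gp130 and JAK-STAT genes (3) numbered 5 with median centring, 1 with normexp, 9 with the scan day as a block, 9 with the replicate block, 19 with array weights and between 2 and 9 without single arrays. Receptor genes (2) numbered 1 with median centring, normexp, no filter or slide random, 4 with the replicate block, 9 with array weights and between 1 and 4 without single arrays. Array weights turned Nfkb1 to 0.24 and Relb to -0.35. The cause of these changes was not tested. Replicate numbers 1 and 2 occur in both groups. Deviations of same-numbered arrays correlated at 0.17 and -0.22. With 3 arrays a group the deviations are tied to each other, so these correlations cannot decide whether the numbers pair the arrays. With the replicate numbers as a block 18 members were called, 14 of them among the 15. The remaining alternatives (quantile normalization, outlier flags kept, mean of a gene's probes, eBayes with trend) kept every one of these counts within 1.5 times. Dim signals limit Bcl3, Vcam1, Il6, Il6ra, Cd40, Il1b and Ikbkg to bounds, as they do 1 probe of Csf1 and the second of Vcam1, and leave Ccl7 and Traf1 set partly against background. The fit over all kept probes was chosen after seeing the data.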
